A study of Mus musculus with 5 samples.

Results

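The proneural basic helix-loop-helix (bHLH) factors examined here are the 3 neurogenins, Neurog1, Neurog2 and Neurog3, the atonal homologue Atoh1, and 4 members of the NeuroD family, Neurod1, Neurod2, Neurod4 and Neurod6. They were taken as a named family, and every probe whose RefSeq accession led to one of these symbols was used. All 8 genes had a probe, 9 probes in all, out of 19897 genes and 26300 probes with a matched symbol on an array of 55681 mouse probes. Neurod1 had 2 probes and each of the other genes had 1.

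The study followed wild type, male mouse embryonic stem cells as they were turned into spinal motor neurons. The samples were undifferentiated cells (ES), embryoid bodies after 8 h of retinoic acid (RA) (Day2), embryoid bodies after 1 day (Day3) and 2 days (Day4) of RA, and motor neurons after 5 days of RA (Day7). The labels have RA given together with Shh between days 2 and 5, whereas the methods of the study name the smoothened agonist SAG as the second inducer. Each time point was 1 sample on 1 one-colour Agilent array, so there was no spread between replicates, no test was possible, and a change of at least 2-fold was used as a rule of size. The Day7 array was on another slide than the other 4, so for Day7 the slide and the stage cannot be told apart. The samples were whole cultures, and in such material fewer cells of a type and less RNA per cell cannot be told apart.

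Proneural bHLH proteins bind DNA at E-boxes as heterodimers with the ubiquitous E proteins, and they drive neural progenitors out of the cell cycle and into neuronal differentiation. Neurogenins and Atoh1 act early, in progenitors, and switch on Delta ligands of the Notch pathway and the NeuroD genes, which act later in young neurons. Hes and Hey repressors, which Notch induces, and Id proteins, which capture E proteins, hold them back. In the spinal cord Neurog2 works with Olig2 in motor neuron progenitors, Atoh1 marks the most dorsal progenitors, and Neurog3 is best known from the endocrine pancreas but is also found in the ventral-most spinal progenitors.

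Neurog2 and Neurog3 moved in opposite directions at the end of the course: Neurog2 was highest on Day4 and Neurog3 was lowest there and highest on Day7. Values below are log2 signals after quantile normalization, which gives every array the same distribution, and a level of one gene is compared only with the same gene on other arrays. The scanner software marks whether a probe is well above the local background, and a probe that is not has only a bound. A change against such a probe is taken from its own value or from the lowest level among probes well above background on that array, whichever is higher, and written as at least that size. That lowest level lay between 2.60 (Day2) and 5.22 (Day3), with 4.18 in ES, 4.05 on Day4 and 4.66 on Day7.

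**Figure D1:**
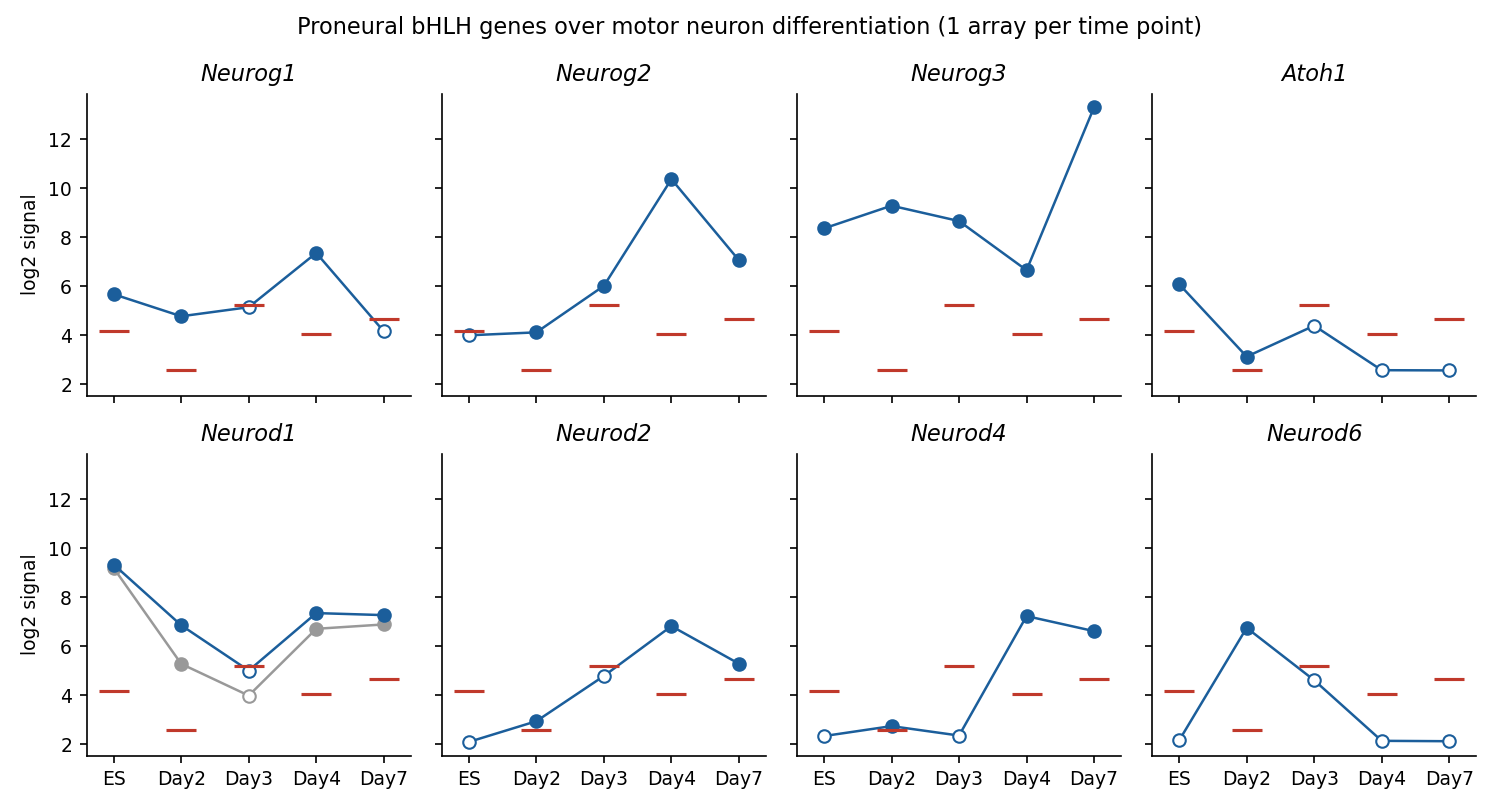
The log2 signal of each gene (vertical axis) at the 5 time points (horizontal axis), 1 array each. Filled circles are well above background, open circles are not, red bars give the lowest level among probes well above background on that array, and grey marks the additional Neurod1 probe. Neurog2 peaked on Day4 at 10.37, whereas Neurog3 reached 13.30 on Day7.

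Neurog2, which promotes neurogenesis and motor neuron fate in ventral progenitors, measured 4.0 in ES (not well above background), 4.12 on Day2, 6.02 and 10.37 on Day3 and Day4, and 7.06 on Day7. The early course depended on the scaling. From ES to Day2 the main setting gave no rise past the lowest level in ES. With arrays aligned at their 75th percentiles it was at least 1.60 on the log2 scale, and without normalization at least 1.83. From Day2 to Day3 the change was 1.90 in the main setting, 0.05 with the percentile alignment and -0.69 without normalization. The signal stood clear of the other arrays on Day4. Day4 was at least 72.9-fold higher than ES, 20.4-fold higher than Day3 and 9.89-fold higher than Day7. The bound against ES, 6.19 on the log2 scale, was 3.79 with the lowest level set by the ERCC probes, which are made for synthetic spike-in RNAs, and 3.91 with another background correction. Whether a spike-in was added is not given in the sources used here, so the ERCC level may hold spike-in signal and is not a measured background. The fall from Day4 to Day7 was -3.31 on the log2 scale and ranged from -3.45 to -2.13 over the alternative settings. Day7 remained at least 7.37-fold above ES, a bound that shrank to 0.48 on the log2 scale with the ERCC level. A list of endoderm and mesoderm genes was read beside it, of which 2 of 5 compared were raised and 1 was lowered from ES to Day4, with 17% and 14.4% of all genes. Gata6, an endoderm factor, measured 6.17 in ES, 6.47 on Day2, 7.78 and 10.43 on Day3 and Day4, and 6.59 on Day7, and Sox17, another, was 8.70 on Day3, 8.96 on Day4 and at least 4.02 lower on Day7 than on Day4 (-4.02). Gata6 thus had its highest array on Day4, while Sox17 was nearly as high on Day3. Of the 6 genes of that list, 3 of 4 compared were lowered from Day4 to Day7, beside 18.1% of all genes, with a median of -3.20 beside -0.12, and T and Mesp1 were well above background on neither of these arrays. Their part in the Neurog2 signal was not tested.

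Neurog1, which acts in sensory and some spinal progenitors, gave weak signals throughout. It measured 5.67 in ES, 4.78 on Day2, 5.15 and 7.36 on Day3 and Day4, and 4.16 on Day7, of which the Day3 and Day7 values were not well above background. As for Neurog2, Day4 was the highest array. The rise from ES to Day4 was 3.21-fold (0.83 on the log2 scale without normalization and 0.76 with another background correction, both short of 2-fold), and the fall from Day4 to Day7 was at least 6.51-fold. The direction between ES and Day2 turned with the scaling, from -0.90 to 0.54 on the log2 scale when arrays were instead aligned at their 75th percentiles.

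Neurog3 was well above background on all 5 arrays, as were 67.7% of the genes. It measured 8.36 in ES, 9.28 on Day2, 8.66 and 6.65 on Day3 and Day4, and 13.30 on Day7. The culture labelled as embryonic stem cells thus already carried a clear Neurog3 signal, and the lowest array was the one on which Neurog2 peaked. From Day3 to Day4 Neurog3 was 4.01-fold lower, and from Day4 to Day7 it was 100.03-fold higher. That last difference was 6.64 on the log2 scale, between 5.70 and 7.82 over the alternatives. The scanner signal before normalization was 55.2 on Day4 and 12476 on Day7, with an error of 10.9% and 10% as the scanner software estimates it for the spot. Day7 was also 30.7-fold above ES, with a log2 change of 4.94 and a range of 4.59 to 5.13. The change from ES to Day3, 0.30, turned to -0.22 without normalization.

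Atoh1, the determinant of dorsal-most spinal interneurons and of cerebellar granule cells, measured 6.09 in ES and 3.13 on Day2. Its later values of 4.39 (Day3), 2.58 (Day4) and 2.57 (Day7) were not well above background. ES was therefore the highest array. The fall from ES to Day2 was 7.75-fold after quantile normalization but -1.13 on the log2 scale with the 75th percentile shift and -0.90 without normalization. Against ES, Day4 was at least 4.09-fold lower and Day7 at least 2.70-fold lower, and with the other background correction both fell short of 2-fold (-0.83 and -0.59). Of the dI1 interneuron genes that follow Atoh1 in the dorsal cord, Lhx9 and Barhl2 were not well above background on Day7, Barhl1 was lower there than in ES (-1.51), and Lhx2 changed by -0.99, short of 2-fold. At earlier stages Lhx2 was 1.80 above ES on Day3 and 1.15 on Day4, and Lhx9 at least 1.47 above ES on Day2, all on the log2 scale.

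Neurod1, which neurogenins activate and which promotes terminal differentiation of neurons and endocrine cells, was also highest in ES. The brighter of its probes measured 9.34 in ES, 6.86 on Day2, 5.01 on Day3 (not well above background), 7.36 on Day4 and 7.27 on Day7. The signal fell to Day3 and partly returned. Day3 was at least 17.3-fold lower than ES, Day4 at least 4.40-fold above Day3, and Day7 4.18-fold lower than ES. The other probe gave 9.19, 5.29, 3.99, 6.71 and 6.89 on the same arrays, also highest in ES, and its Day3 value was not well above background. The probes differed in the fall to Day2, which was 5.56-fold with the brighter probe and 15.0-fold with the other. Between Day4 and Day7 the change was -0.08 with the brighter probe and 0.18 with the other, and 1.15 for the brighter probe without normalization.

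Neurod2, a factor of maturing neurons, and Neurod4, which acts between neurogenins and the late NeuroD genes, shared their course. Neurod2 measured 2.10 in ES and 4.79 on Day3, both not well above background, 2.95 on Day2, 6.82 on Day4 and 5.29 on Day7. Neurod4 measured 2.34 in ES and 2.36 on Day3, both not well above background, 2.75 on Day2, 7.23 on Day4 and 6.62 on Day7. Both were thus highest on Day4. Neurod2 was at least 6.26-fold and Neurod4 at least 8.31-fold above ES there, but 0.25 and 0.65 on the log2 scale with the lowest level set by the ERCC probes. From Day4 to Day7 Neurod2 was 2.89-fold lower. That change fell short of 2-fold without normalization (-0.50 on the log2 scale) and with the other background correction (-0.84). Neurod4 changed by -0.61, short of 2-fold, with a value of 0.56 without normalization. After each profile was centred on its own mean, Neurod2 and Neurod4 were the closest of all pairs of the family, with a root mean square difference of 0.55 on the log2 scale over the 5 arrays, and Neurog2 and Neurog3 were the farthest apart, at 3.51. In ES and on Day3 neither Neurod2 nor Neurod4 was well above background, so both were set there at the same lowest level and tie on those arrays by construction.

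Neurod6, a gene of postmitotic cortical and hippocampal neurons, was well above background on 1 array, Day2. It measured 6.75 there, against 2.16 in ES, 4.62 on Day3, 2.15 on Day4 and 2.13 on Day7. Day2 was at least 5.97-fold above ES by the main setting, 0.77 on the log2 scale with the other background correction and 0.18 with the level set by the ERCC probes. The Day2 array stood apart in its flags: 86.7% of the mouse probes passed as well above background there, against 57.5% to 65.7% on the other arrays, and so were 65.6% of its 96 ERCC probes, against 4.17% to 9.38%. On Day2, 8.33% of the ERCC probes were as bright as Neurod6 or brighter. The pattern of flags seen in Neurod6, Day2 alone, was shared by 2188 genes, 11% of the total. All 8 family members were well above background on Day2, against 4 in ES, 2 on Day3, 6 on Day4 and 5 on Day7. The part of the array's background in these Day2 signals was not tested.

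Counted by the rule of 2-fold, 1 of the 8 genes was raised from ES to Day2 (Neurod6) and 2 were lowered (Atoh1, Neurod1), where 10.7% of all genes were raised and 11.3% lowered. With the 75th percentile shift 3 were raised and 2 lowered, and without normalization 3 and 1. From ES to Day3, 5 genes could be compared, of which 1 was raised (Neurog2) and 1 lowered (Neurod1), beside 15.6% and 10.2% of all genes, and 1 and 3 without normalization. From ES to Day4, 4 of 7 were raised (Neurog1, Neurog2, Neurod2, Neurod4) and 3 lowered (Neurog3, Atoh1, Neurod1), beside 17% and 14.4% of all genes. The family median was 1.68 on the log2 scale and that of all genes 0.05. All 7 with a value lay past 2-fold in the main setting, but Neurog2, Neurod2 and Neurod4 had a value only through Day4. Neurod6, dim on both arrays, had none. Without normalization 3 were raised and 3 lowered, and with the other background correction 3 and 2. With the lowest level set by the ERCC probes 2 were raised. Among genes well above background on both arrays 1 was raised.

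From ES to Day7, 4 of 7 were raised (Neurog2, Neurog3, Neurod2, Neurod4) and 3 lowered (Neurog1, Atoh1, Neurod1), beside 24.8% and 24.4% of all genes, with a median of 1.11 for the family and -0.07 for all genes. Neurog1 and Neurod2 were close to the limit, at least 2.03-fold lower and at least 2.16-fold higher. With the other background correction 2 were raised and 1 lowered. With the lowest level set by the ERCC probes 1 was raised (Neurog3), with Neurog2 at 0.48 and Neurod4 at 0.04 on the log2 scale. From Day4 to Day7, 1 of 6 was raised (Neurog3) and 3 were lowered (Neurog1, Neurog2, Neurod2), beside 18.1% of all genes raised and 18.1% lowered. In the main setting the family median was -1.07 and that of all genes -0.12. Without normalization 2 were raised and 2 lowered, where the median of all genes was 1.06. With the other background correction 1 was raised and 2 were lowered. These comparisons share the ES or the Day4 array, so they are not separate evidence of each other.

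**Figure D2:**
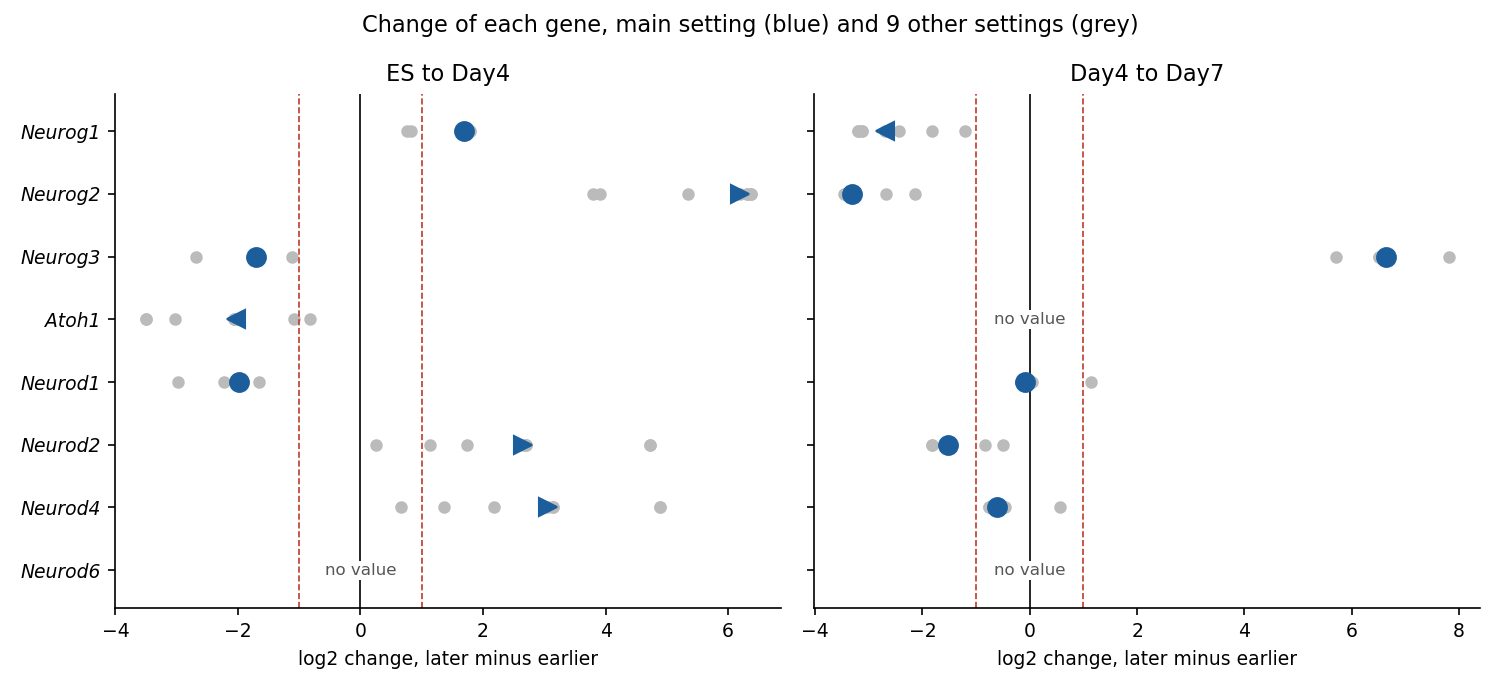
The log2 change of each gene (horizontal axis, later minus earlier) from ES to Day4 on the left and from Day4 to Day7 on the right. Blue circles are measured changes, blue arrowheads are bounds that point away from 0, grey circles are the same change under the alternative settings, and dashed lines mark 2-fold. Neurog3 (6.64) was the member raised from Day4 to Day7 by the main setting.

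The promoter sequences of 3 members are shown, Neurog3 for its change from Day4 to Day7 and Neurod2 and Neurod4 as members with their highest array on Day4. Each run is the 250 bases upstream of the RefSeq transcription start on the mouse assembly GRCm38.p6, written 5′ to 3′ on the strand of the gene, with E-boxes in capitals. The Neurog3 window is chr10:62132840-62133089 on the plus strand, the Neurod2 window chr11:98329646-98329895 on the minus strand and the Neurod4 window chr10:130280255-130280504 on the minus strand.
Neurog3: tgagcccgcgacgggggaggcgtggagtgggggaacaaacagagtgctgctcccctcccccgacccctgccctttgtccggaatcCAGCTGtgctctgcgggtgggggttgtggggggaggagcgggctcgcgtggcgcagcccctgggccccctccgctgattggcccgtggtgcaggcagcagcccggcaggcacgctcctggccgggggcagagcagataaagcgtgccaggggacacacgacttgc
Neurod2: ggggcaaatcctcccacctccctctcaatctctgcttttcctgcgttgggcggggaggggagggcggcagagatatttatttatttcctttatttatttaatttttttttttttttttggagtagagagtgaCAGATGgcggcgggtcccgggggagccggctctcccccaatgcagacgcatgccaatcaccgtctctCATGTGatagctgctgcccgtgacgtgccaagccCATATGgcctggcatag
Neurod4: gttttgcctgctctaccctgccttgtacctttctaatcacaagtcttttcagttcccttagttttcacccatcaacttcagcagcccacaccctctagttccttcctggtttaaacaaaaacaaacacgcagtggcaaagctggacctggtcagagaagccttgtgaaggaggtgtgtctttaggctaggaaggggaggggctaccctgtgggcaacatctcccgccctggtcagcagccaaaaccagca
The motif searched was CANNTG, the E-box, which reads as an E-box on both strands. The cores CAGATG, preferred by neurogenins and NeuroD factors, and CAGCTG are forms of it and overlap it. The Neurog3 window held 1 E-box, CAGCTG. The Neurod2 window held 3, among them 1 CAGATG. The Neurod4 window held none, nor did a window for another start of the gene. Over 32851 promoter windows of this length, 66.2% held an E-box, 14.4% CAGATG and 13.0% CAGCTG. In the other members the window held 2 E-boxes for Neurod6, 1 for Neurod1 and 0 for Neurog1, Neurog2 and Atoh1. A match says only that these letters occur there.

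Changes in the gene lists that follow are log2 differences, later minus earlier. Without normalization the median of all genes from Day4 to Day7 was itself 1.06, so counts for that interval under that setting are shifted upward. The E proteins Tcf3, Tcf4 and Tcf12, with which proneural factors dimerize, were well above background on every array. From Day4 to Day7 none of the 3 passed 2-fold, where 18.1% of all genes did in each direction, with a median of 0.47 beside -0.12 for all genes, and Tcf3 changed by -0.83, Tcf4 by 0.51 and Tcf12 by 0.47. In that interval 2 of them were raised without normalization, and 1 was lowered with the mean over all probes. From ES to Day7 1 of the 3 was raised, beside 24.8% of all genes, Tcf4 at 1.02, and 0 did with the 75th percentile shift, the other background correction, the deposited values or the mean over all probes. The Id inhibitors split. Id1 measured 13.17 in ES, 8.31 on Day2, 10.81 and 13.39 on Day3 and Day4, and 11.77 on Day7, so that it was lowest after 8 h of RA. Id1, Id2 and Id3 were lower on Day7 than on Day4 (-1.62, -1.53 and -1.54), while Id4 was 5.37 higher, with 7.98 on Day4 and 13.35 on Day7. Without normalization 0 of the 4 were lowered past 2-fold. Id4 thus had its highest array on Day7, as Neurog3 did, after 8.66 in ES, 6.07 on Day2 and 6.49 on Day3.

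The list of Hes and Hey repressors held 9 genes, of which Bhlhe40 and Bhlhe41 are related repressors outside both families. Of the 9, 4 were raised and 1, Bhlhe40 (-1.82), was lowered from ES to Day7, beside 24.8% and 24.4% of all genes, with a median of 0.24 beside -0.07 for all genes. Hes5, the Notch target of neural progenitors, measured 6.63 in ES, 8.47 on Day2, 9.63 and 13.11 on Day3 and Day4, and 12.59 on Day7. It was highest on Day4, the array on which Neurog2 peaked, and stayed close to that level on Day7. Hey1, another Notch target, was 4.48 higher on Day7 than on Day4, and Hes1 was 1.07 lower (-1.07). From Day4 to Day7 those were the members past 2-fold, 1 in each direction of 9, a share under the 18.1% of all genes in each direction. Without normalization, where the median of all genes was 1.06, 6 were raised and 0 lowered.

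The list of neurogenin targets and cofactors held 31 genes, of which 30 could be compared from ES to Day7, with 19 raised and 3 lowered, beside 24.8% and 24.4% of all genes, and a median of 2.96. From Day4 to Day7, 15 of 31 were raised and 3 lowered, beside 18.1% of all genes in each direction, with a median of 0.88. Without normalization those counts were 26 and 0, with the median of all genes at 1.06. The raised genes included Dcx, a microtubule protein of migrating neurons (7.58), Myt1l, a repressor of non-neuronal genes (at least 7.50), the neuronal repressor Scrt1 (5.15), Ebf1 (5.05) and Ebf3 (2.71), which promote exit from the progenitor state, and Myt1 (at least 4.99). Over the same interval Neurog2 fell by 3.31 on the log2 scale. Other genes of the list did not pass 2-fold upward in the same interval. The Notch ligand Dll1 changed by 0.87, Dll3 by 0.31, Hes6 by 0.56 and Insm1 by 0.88, while Gadd45g, which slows the cell cycle, changed by -1.19. Insm1 and Hes6 had their highest signal in ES, 13.56 and 13.27, as Neurod1 did. Elavl3, Elavl4, Tubb3 and Dcx also belong to the general neuron markers, of which 7 of 8 were raised from Day4 to Day7, beside 18.1% of all genes.

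Among the 16 other neurogenic bHLH genes, 7 were raised and 4 lowered from ES to Day7 of 13 compared, beside 24.8% and 24.4% of all genes. Between Day4 and Day7 it was 7 and 5 of 15, beside 18.1% in each direction, and without normalization 1 was lowered. With the other background correction the raised count from ES to Day7 was 4, and 3 were raised and 3 lowered between Day4 and Day7. Nhlh2, a factor of young neurons, measured 2.62 in ES, 2.89 on Day2, 3.0 and 8.51 on Day3 and Day4, and 11.76 on Day7, and was not well above background in ES and on Day3. It was thus higher on Day7 than on Day4, by 3.25 on the log2 scale, where Neurog2 and Neurod2 were lower. Olig2, the motor neuron progenitor factor that works with Neurog2, measured 10.34 in ES, 8.47 on Day2, 7.87 and 11.47 on Day3 and Day4, and 7.35 on Day7. Olig2 and Neurog2 both had their highest array on Day4, and both were lower on Day7, Olig2 by -4.12 and Neurog2 by -3.31. Ferd3l, a bHLH gene of the floor plate, was at least 5.73 higher on Day7 than on Day4.

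**Figure D3:**
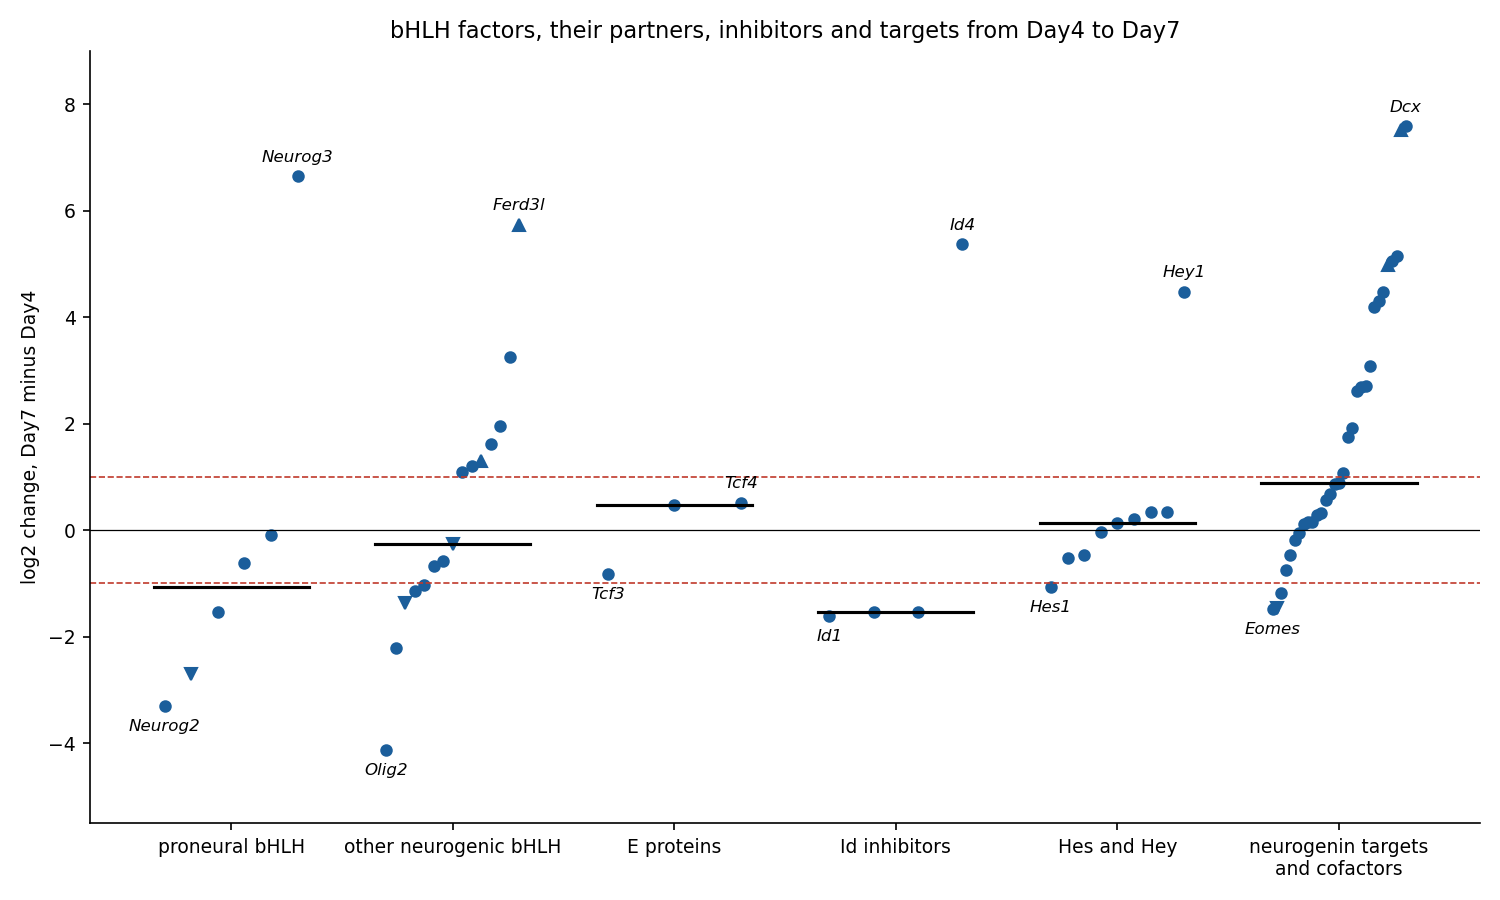
The log2 change from Day4 to Day7 (vertical axis) of every gene with a value in the family, the other neurogenic bHLH genes, the E proteins, the Id inhibitors, the Hes and Hey repressors with Bhlhe40 and Bhlhe41, and the neurogenin targets and cofactors (horizontal axis). Triangles are bounds, black bars are list medians and dashed lines mark 2-fold. The family median was -1.07 and that of the targets and cofactors 0.88.

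The labelled end point was checked against markers. All 7 motor neuron genes with a probe were raised from ES to Day7, beside 24.8% of all genes, with a median of 6.06 beside -0.07, among them Isl1 (6.06) and Chat, which makes acetylcholine (at least 7.96). The 7 genes of p3 progenitors, V3 neurons and floor plate were also all raised from ES to Day7, with a median of 5.37, and 6 of them rose and 1 fell from Day4 to Day7, beside 18.1% of all genes in each direction. Sim1 and Shh were not well above background on Day4 and were at least 4.55 and 8.65 higher on Day7, beside the 6.64 of Neurog3. Nkx2-2 was 3.09 and Foxa2 2.60 higher, and Nkx2-9 changed by -2.67.

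Neurog3 also marks endocrine progenitors. Of the 8 pancreatic endocrine genes, Pdx1, Gcg, Pax4 and Iapp were not well above background on Day7, nor in ES. Ins1 changed by -2.24 and Ins2 by -0.12 from ES to Day7, while Sst, a peptide also made by neurons, was at least 9.83 higher and Chga, found in many secretory cells and neurons, 2.69 higher. No telencephalic gene, the setting in which Neurod6 is usually found, was raised past 2-fold from ES to Day7, where Tbr1 was 5.41 (-1.22 against ES) and Emx1 was not well above background. Bcl11b was 0.83 above ES on Day7 and at least 4.11 above Day4, and Tbr1 changed by 0.75 from Day4 to Day7. The part of any of these cell types in the family's signals was not tested.

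**Figure D4:**
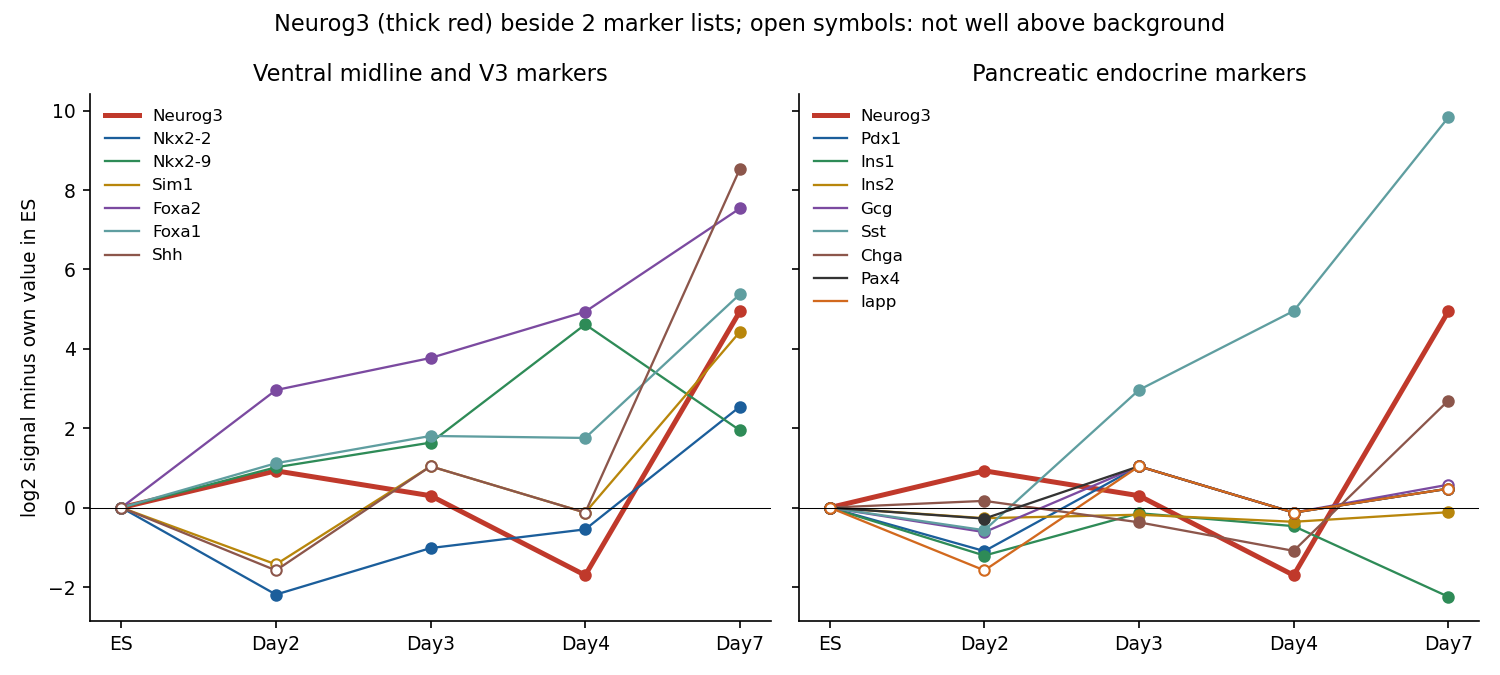
The log2 signal minus the gene's own value in ES (vertical axis) at the 5 time points (horizontal axis) for Neurog3 and ventral genes on the left and the pancreatic endocrine genes on the right. Open symbols are not well above background and are drawn at no less than the lowest level among probes well above background. On Day7 Neurog3 stood 4.94 above ES, with every ventral gene drawn above ES and 4 of the 8 endocrine genes not well above background.

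The genes whose centred profiles were nearest to each member were sought among 7083 genes with a range of at least 2 on the log2 scale over the 5 arrays. Nearest to Neurog2 were Smoc2, an extracellular calcium-binding protein (root mean square difference 0.42), Vnn1 (0.56) and Acta2, smooth muscle actin (0.62). Smoc2 measured 6.28, 5.85, 8.16, 11.79 and 8.10 from ES to Day7, so it too peaked on Day4. Nearest to Neurog3 was Gm10375 (0.36), followed by Mapk10, the neuronal JNK3 kinase, and BC061237 (both 0.44). Gm10375 and BC061237 were not well above background in ES, on Day3 and on Day4, so their distances rest partly on bounds. Mapk10 measured 8.91, 9.49, 7.93, 6.90 and 13.09, and so was lowest on Day4 and highest on Day7 like Neurog3.

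The zinc finger gene Insm1, listed above among the targets, was the third nearest to Neurod1 (0.49), after Dlc1 (0.45) and the activin antagonist Fst (0.46). Nearest to Neurod4 were Prdm6 (0.21), Adamts17 (0.25) and the mechanosensitive channel Piezo2 (0.25), where Prdm6 and Neurod4 tie at the lowest level in ES and on Day3. Nearest to Neurog1 were Iqub (0.18), the small heat shock protein Cryab (0.24) and Ifi35 (0.24). For Neurod2 (Tcstv3 0.14, Usp17lb 0.15), Atoh1 (Klk1 0.02, Spata22 0.02, Has1 0.07) and Neurod6 (Olfr1336 0.003, Dmbt1 0.003, Vmn1r47 0.006) the likeness rested on arrays where both genes were not well above background and were set at the same lowest level. Neurog1 and Iqub tied in this way on Day3, and Neurog2 and Vnn1 in ES. These likenesses describe 5 arrays and carry no test.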

How the data were processed

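Total RNA of 5 samples was labelled with Cy3 and hybridised to Agilent one-colour 8x60K arrays, 1 array per time point, which limits the precision of every value. The authors deposited the scanner output, in which the intensity of each spot was background-subtracted and detrended by Agilent Feature Extraction 10.5.1 (version from the submitters' processing notes) and flagged for detection. A deposited table of log2 values from the same arrays equalled log2 processed signal minus the array's 75th percentile within 0.01 for at least 99.99% of probes on each array. Its scale, centring and direction were thus settled, with medians from -3.71 to -2.62. Number of unassigned sample columns: 0.

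Control and outlier spots were left out, and the remaining log2 intensities were averaged over the spots of a probe. Quantile normalization was done with limma 3.58.1 in R 4.3.3, since the legend of the study's heat map names quantile analysis. Each probe of the family had 1 spot. Over 432 probes with several spots, the median SD between spots was 0.06 to 0.11 on the log2 scale. Further steps used Python 3.11.15, numpy 2.4.6, pandas 2.3.3 and matplotlib 3.10.9. Symbols came from RefSeq accessions of GRCm38.p6. The array's design predates this assembly, so that table served for names and promoters alone. Mnx1 had no matched probe and is not analysed here.

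The brightest probe by its mean over the 5 arrays stood for its gene. A gene dim on both arrays was given no value, and one whose bright side stayed at or under the lowest level entered medians as 0. The rule called a change at 2-fold. The steps were tested on simulated data, which with 1 array per time point says nothing of how reliable a call is. Named were all 8 members, members of gene lists for partners, inhibitors, targets and cell types, and the 3 nearest genes of each member, of which some are not reported here. Members and lists were chosen with earlier results of these data known. Alternatives were a 75th percentile shift, no normalization, the deposited log2 table, normexp (offset 50) as the background step ahead of quantile normalization, a second detection flag, keeping dim probes unfiltered, detection on both arrays, a lowest level at the 95th percentile of the ERCC probes, the mean over all probes, and thresholds of 1.5-fold and 4-fold.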

Additional observations from a re-analysis of the deposited data

Results flagged for a closer look

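On the Day2 array 65.6% of the 96 ERCC probes, which entered no comparison of genes except as an alternative lowest level, were well above background, against 7.29% in ES, 4.17% on Day3, 9.38% on Day4 and 7.29% on Day7.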

How the results depend on the processing

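The settings are not independent of each other. The deposited values match the 75th percentile shift, so they count as the same setting. Where a gene is well above background on both arrays, changing only the flag, filter or lowest level returns the main value by construction. The mean over all probes does the same for a gene with 1 probe. Of 337 recomputed changes of single members, 289 kept their direction and side of the 2-fold limit, 29 lost and 10 gained the call, 7 others moved and 2 reversed. Those were Neurog2 from Day2 to Day3 (-0.69) and Neurod1 from Day4 to Day7 (1.15), both without normalization, where the median of all genes itself was -0.81 and 1.06. Genes raised from ES to Day2 (main setting 1) numbered 3 with the 75th percentile shift, no normalization or the deposited values, 0 with normexp, detection on both arrays or the ERCC level, and 2 at 1.5-fold. From ES to Day3 (1) they numbered 0 with normexp, detection on both arrays, the ERCC level or 4-fold, and 3 with the other detection flag or no filter. From ES to Day4 (4) they numbered 1 with detection on both arrays and 2 with the ERCC level. From ES to Day7 (4) they numbered 2 with normexp, 1 with detection on both arrays and 1 with the ERCC level. From Day4 to Day7 (1) they numbered 2 without normalization. Detection on both arrays leaves out genes that start or end dim, and the cause of the other shifts was not tested. Of 220 recounts of the gene lists, 179 stayed within 1.5 times. No paired analysis was possible because there was 1 array per stage. Leaving out a replicate or taking slide as a block could not be run for the same reason. The Neurog2 fall and the Neurog3 rise from Day4 to Day7 kept direction and call under every setting run. For both genes several of those settings returned the main value by construction.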
